A study of Mus musculus with 6 samples.

Results

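The TFAP2 genes encode the AP-2 transcription factors. All 5 mouse members, Tfap2a, Tfap2b, Tfap2c, Tfap2d and Tfap2e, were taken by gene symbol from the 37991 genes counted in each library. They were chosen with the male against female difference of Tfap2c already known, so the values of the members in the 2 sexes are given as a description, with no test. The RNA came from mouse Müllerian duct mesenchyme at embryonic day 14.5 and was sequenced in 3 male and 3 female libraries. The embryos of both sexes carried the genotype Amhr2Cre/+, R26R YFP/+ on a C57BL/6J x 129/SvEv mixed background, so the Cre and the reporter were shared by both groups. Cells were sorted by flow cytometry for YFP, which marks cells in which Cre from the Amhr2 locus had been active, in the cell itself or in a precursor. Each library came from cells pooled over 2 to 7 embryos, so spread between libraries is spread between pools. Male embryos at this age are exposed to anti-Müllerian hormone from the testis, and the study's title places osterix downstream of that hormone in duct regression.

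AP-2 proteins bind DNA as dimers, through a basic helix-span-helix region, at GC-rich palindromes. They are known for roles in surface ectoderm, neural crest, trophoblast, germ cells and several epithelia. CITED proteins act as their coactivators and KCTD1 and KCTD15 as their inhibitors.

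Across all 15227 genes tested with edgeR's quasi-likelihood test at an adjusted p threshold of 0.05, 0.841% were called higher and 0.387% lower in male, 1.23% in all. These are 128 and 59 genes, and with an offset for GC content and length they were 460 and 445. The count fell to 14, 5 and 0 without female replicates 1 to 3 and to 7 and 0 without male replicates 2 and 3, and it was 173 without male replicate 1. Below, a gene passed where its adjusted p was under 0.05.

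Libraries held 22511872 to 24749859 counts in genes. Values are given as CPM, each gene's counts scaled to a common library size by the TMM method, and a single library's 3 counts stood for 0.110 to 0.148 CPM. The label check held in 6 of 6 libraries, with Xist at 277.5 CPM or more in the female and at most 2.22 CPM in the male libraries, and Ddx3y at 17.1 CPM or more in the male and at most 0.0492 CPM in the female libraries. All 8 listed duct mesenchyme genes were tested, none passed by edgeR (2 at an unadjusted p under 0.05, 1 by DESeq2, 0 by limma-voom and 4 with the offset), and their summed level was 3365 to 4574 CPM in the female and 4857 to 5103 CPM in the male libraries. Amhr2, the receptor gene whose locus drives the Cre, was at 530.3 ± 233.7 CPM in the female and 338.8 ± 158.4 CPM in the male libraries (SD, n = 3). The sexes overlapped, and the log2 fold change, male over female, was −0.65 (SE 0.53). With the offset for GC content and length it was −0.97, and Amhr2 was then called lower in male (adjusted p = 0.0256 by edgeR with that offset). Hoxa10 and Hoxa11 were also called lower with the offset, and Pdgfra higher. A part of this difference in the sorting of the cells was not tested.

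Tfap2c (ENSMUSG00000028640, chromosome 2), the gene of AP-2 gamma, was the one TFAP2 gene with more than a trace of RNA, and it was present in female mesenchyme. Its counts were 715, 534 and 536 in the female replicates 1 to 3 and 8, 4 and 15 in the male replicates 1 to 3. On the CPM scale these were 26.3, 26.3 and 21.4 in the female and 0.306, 0.198 and 0.632 in the male libraries. Every female library was far above every male library, and male replicate 3 was the highest of the male libraries. The mean was 24.7 ± 2.78 CPM in the female and 0.379 ± 0.226 CPM in the male libraries (SD, n = 3), a ratio of 65.1. The ratio of summed counts was 63.9, with an exact 95% interval of 43.8 to 97.2 that covers counting error only. Leaving out single libraries, or both libraries of a replicate number, moved the ratio of means between 50.9 and 105.6, and the upper end came without replicate 3 of both sexes. In bulk libraries, fewer cells that express a gene and less RNA per cell cannot be told apart.

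Per kilobase of exon, Tfap2c lay near the middle of the genes tested in female mesenchyme and near the bottom in male mesenchyme. Its length-scaled level was above that of 56.8%, 59.7% and 52.9% of 14674 tested genes with a length in the female replicates 1 to 3. In male replicates 1 to 3 it was above 1.52%, 1.91% and 6.41% of them. In no male library was Tfap2c at 0 counts.

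Tfap2a (ENSMUSG00000021359, chromosome 13), the gene of AP-2 alpha and a regulator of neural crest and face development, was at trace level in both sexes. It held 4, 1 and 4 counts in the female replicates 1 to 3 and 11, 7 and 7 in the male replicates 1 to 3. The male libraries were all above the female libraries, at 0.295 to 0.421 CPM against 0.0492 to 0.160 CPM. The ratio of summed counts, male over female, was 2.87, with an exact 95% interval of 1.30 to 7.00 for counting error only. Thus Tfap2a was higher in the male libraries, on 25 male and 9 female counts, and Tfap2c in the female libraries, on 1785 female and 27 male counts. Tfap2a did not pass the filter on low counts, and 13.7% of the genes tested did not overlap between the sexes. RefSeq names Gm26688, beside Tfap2a, as its antisense gene. With a kit that keeps no strand information, reads from any stretch that the pair shares cannot be told apart.

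The other three members were close to or at 0. Tfap2b (ENSMUSG00000025927, chromosome 1), the gene of AP-2 beta, with known roles in kidney and ductus arteriosus, held 2 counts over the female and 1 over the male libraries, which gives no fold. Tfap2d (ENSMUSG00000042596, chromosome 1) and Tfap2e (ENSMUSG00000042477, chromosome 4), genes of AP-2 delta and AP-2 epsilon known from midbrain and olfactory bulb, held 0 counts in all 6 libraries. A count of 0 allows up to 3 counts per group, which stands for 0.0413 CPM in the female and 0.0428 CPM in the male libraries. Of the 5 members, 1 (Tfap2c) passed the filter on low counts and 4 did not, and Tfap2c passed it through the female libraries.

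Tfap2c led the members by mean level in both sexes, but by very different margins. In female libraries Tfap2c was at 6.70 CPM per kilobase of exon on average, followed by Tfap2a at 0.0242 and Tfap2b at 0.00452. The ratio of Tfap2c to Tfap2a per kilobase was 238.2, 711.7 and 178.6 in the female replicates 1 to 3, the middle one resting on 1 count of Tfap2a. In male libraries Tfap2c was at 0.103 and Tfap2a at 0.0722 CPM per kilobase. The same ratio was 0.969, 0.762 and 2.86 in the male replicates 1 to 3, so these neighbours in the male order were not separated beyond their spread. The plot of CPM by member shows the overlap of the male values of Tfap2a and Tfap2c.

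**Figure D1:**
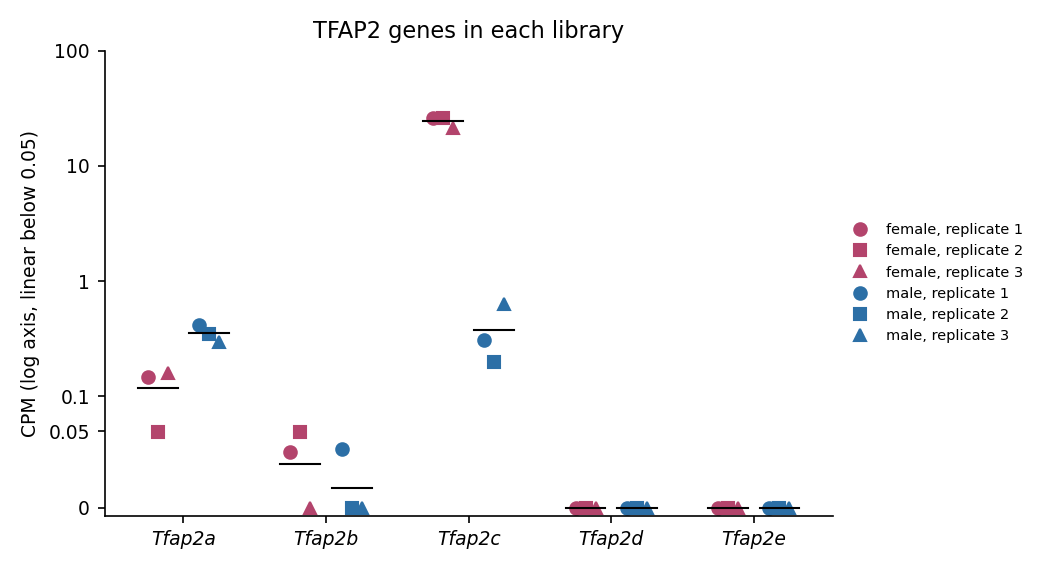
CPM of the 5 TFAP2 genes in each library, on a log axis that is linear below 0.05, with 1 point per library and a line at the mean of 3 libraries per sex. The female points of Tfap2c, at 21.4 to 26.3 CPM, stand far above all other points, and Tfap2d and Tfap2e lie at 0.

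Tfap2c is known from germ cells, ectoderm and epithelia, and the markers of such cells were read beside it. Of 12 germ cell genes, 6 held at most 10 counts over all 6 libraries, among them Pou5f1, Dppa3 and Stra8. Ddx4, a germ cell RNA helicase gene, held 26 female and 45 male counts, at 0.326 ± 0.351 and 0.608 ± 0.469 CPM (SD, n = 3). The summed level of the germ cell list was 58.95 to 154.0 CPM in the female and 15.5 to 29.8 CPM in the male libraries, and without Prdm1 it was 2.84 to 4.08 CPM and 5.94 to 6.33 CPM. The part of germ cells in the Tfap2c values was not tested. Prdm1, a repressor gene that acts with Tfap2c in germ cell specification, is also expressed outside germ cells. It stood at 104.8 ± 47.7 CPM in the female and 16.4 ± 7.32 CPM in the male libraries and did not pass over all genes (log2 fold change −2.68, SE 0.55, adjusted p = 0.0858 by edgeR). In 5 of 18 alternatives it passed, with log2 fold changes from −3.05 to −2.33 over all of them. Of the 3 germ cell genes tested, 2 had positive log2 fold changes and 1, Prdm1, a negative one. Sall4, picked after its values were seen, held 39 female and 138 male counts. Its log2 fold change was 1.88 (SE 0.37, adjusted p = 0.0717 by edgeR). DESeq2 and the offset for GC content and length each called Prdm1 lower and Sall4 higher in male.

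Among duct epithelium genes, 9 of 13 were tested and, against 0.387% of all genes called lower, 1 was lower past the threshold. This was Epcam, an epithelial adhesion gene, which fell from 13.7 ± 3.08 CPM in the female to 2.58 ± 0.477 CPM in the male libraries (SD, n = 3, edgeR adjusted p = 0.0381), a ratio of 5.32. The call was lost in each fit without a single library. In all 2 of the list were at an unadjusted p under 0.05. The log2 fold changes ran from −3.05 to 1.03, with 3 positive and 6 negative. Cldn4, a tight junction gene picked after its values were seen, was at 10.8 ± 9.48 and 1.31 ± 0.838 CPM (SD, n = 3), a log2 fold change of −3.05 that missed the threshold (edgeR adjusted p = 0.208) but passed by DESeq2 and with the offset. Cdh1, the epithelial cadherin gene, was at 1.09 ± 0.490 and 1.24 ± 0.376 CPM and did not pass. The summed level of the list was 173.4 to 591.4 CPM in the female and 127.9 to 392.4 CPM in the male libraries, mostly Krt18 and Krt8, and the sexes overlapped. None of its markers was at 0 in all libraries. The part of epithelial cells in the Tfap2c values was not tested.

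Other cell types had the following levels. Of 7 surface ectoderm genes 4 were tested and none passed (1 at an unadjusted p under 0.05), with a summed level of 28.3 to 100.2 CPM in the female and 19.9 to 52.6 CPM in the male libraries. DESeq2 and limma-voom called 0 of them as well, and the offset for GC content and length called 1, Krt17. Krt17 was at 33.9 ± 24.3 CPM in the female and 7.97 ± 4.81 CPM in the male libraries, and Krt14 at 15.2 ± 10.5 and 21.1 ± 12.3 CPM (SD, n = 3), so the most abundant gene differed between the sexes. Of 9 neural crest and Schwann cell genes 4 were tested, with a sum of 86.3 to 171.6 CPM in the female and 240.4 to 490.9 CPM in the male libraries. Of these 1 passed, Ednrb, against 0.841% of all genes called higher. Ednrb, an endothelin receptor gene also known outside neural crest, gave 88.7 to 398.6 CPM of the male sum. It rose from 6.84 ± 4.34 to 229.3 ± 157.0 CPM (SD, n = 3, edgeR adjusted p = 0.0495). The call was lost without any female library and without male replicate 2 or 3. It was also lost with a filter of 1 CPM in 3 libraries (edgeR adjusted p = 0.0509). Foxd3 and Pax3, defining neural crest genes, held 0 counts in all libraries, and Sox10 held 4 female and 24 male counts. Of 9 mesothelium genes 8 were tested and none passed by edgeR, DESeq2 or limma-voom, while the offset called 1, Bnc1, lower in male. By edgeR 3, Bnc1, Lrrn4 and Upk1b, were lower at an unadjusted p under 0.05. Over the list 3 log2 fold changes were positive and 5 negative. The mesothelium sum was 667.8 to 852.4 CPM in the female and 565.8 to 645.4 CPM in the male libraries, and Wt1 gave the most. Of 9 mesonephros and kidney tubule genes 2 were tested, none passed (1 at an unadjusted p under 0.05, 0 by DESeq2 or limma-voom), Umod was at 0 in all libraries, and the sum, mostly Sall1, was 131.4 to 203.5 CPM in the female and 60.95 to 97.5 CPM in the male libraries. All 8 gonadal supporting cell genes were tested, 6 at an unadjusted p under 0.05, with 4 log2 fold changes positive and 4 negative. Of these 3, the Sertoli genes Amh, Sox9 and Cst9, rose, against 0.841% of all genes called higher, and all these calls were lost without any female library or without male replicate 2 or 3. Irx3 and Foxl2, known from granulosa cells, missed the threshold by edgeR at −3.73 and −2.34 in log2 fold change, but passed by DESeq2 and with the offset. The sum was 26.1 to 39.5 CPM in the female and 61.8 to 101.0 CPM in the male libraries. The genes of this list other than Sox9 were picked after their values were seen. The part of any of these cells in the results that follow was not tested.

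Beside Tfap2c on chromosome 2, Bmp7 fell in the male libraries. Bmp7, which encodes a bone morphogenetic protein, is the first tested gene after Tfap2c in the reference gene order. It stood at 104.2, 136.1 and 120.5 CPM in the female replicates 1 to 3 and at 11.9, 21.6 and 17.4 CPM in the male replicates 1 to 3. The sexes did not overlap, which held for 13.7% of all genes tested. The mean fell from 120.3 ± 16.0 to 17.0 ± 4.85 CPM (SD, n = 3), or −2.82 in log2 fold change (SE 0.37; adjusted p = 0.0253 by edgeR). Over 18 alternatives it lay between −3.04 and −2.62 and passed in 11. The call was lost without any female replicate, at adjusted p = 0.0778, 0.0746 and 0.22 for replicates 1 to 3, and without male replicate 2 or 3 (0.0905 and 0.225). It held without male replicate 1 and without replicate 1 of both sexes, but not without replicate 2 or 3 of both sexes (0.148 and 1).

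Bmp7 was the only 1 of 8 tested neighbours, 4 on each side of Tfap2c, that passed, against 0.387% of all genes tested that were called lower. Before Tfap2c, Aurka, Cstf1, Rtf2 and Gcnt7 had log2 fold changes of −0.49, 0.01, 0.30 and −0.23. Aurka encodes a mitotic kinase, and Cstf1 a subunit of the cleavage complex at messenger RNA ends. Beyond Bmp7, Rae1, Rbm38 and Gm14453 had −0.02, −0.76 and −0.34. With the offset for GC content and length 2 neighbours were called lower in male, Bmp7 and Rbm38, where 445 of all genes were. Gcnt7 overlaps Rtf2 and Gm14453 overlaps Rbm38, each on the opposite strand, so reads of these pairs cannot be told apart.

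Spo11, the gene between Bmp7 and Rae1, encodes the enzyme that makes meiotic DNA breaks and was chosen after its values were seen. It held 233, 8 and 74 counts in the female replicates 1 to 3 and 3, 0 and 3 in the male replicates 1 to 3. All female libraries were above all male libraries, but the female libraries differed by a wide margin. The ratio of summed counts was 50.7, female over male, with an exact 95% interval of 23.0 to 139.3 for counting error only. Spo11 did not pass the filter on low counts. With no filter it missed the threshold, with a log2 fold change of −5.47 (SE 1.16, adjusted p = 0.0678 by edgeR). Sycp3, a meiotic chromosome gene, held 30 female and 31 male counts, and Stra8, which starts meiosis, held 2 and 0. The plot of the region shows female points above male points for Tfap2c, Bmp7 and Spo11, and overlap for the other genes drawn. A miRNA gene with 1 count in all, Gm22773, lies between Tfap2c and Bmp7 and is not drawn.

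**Figure D2:**
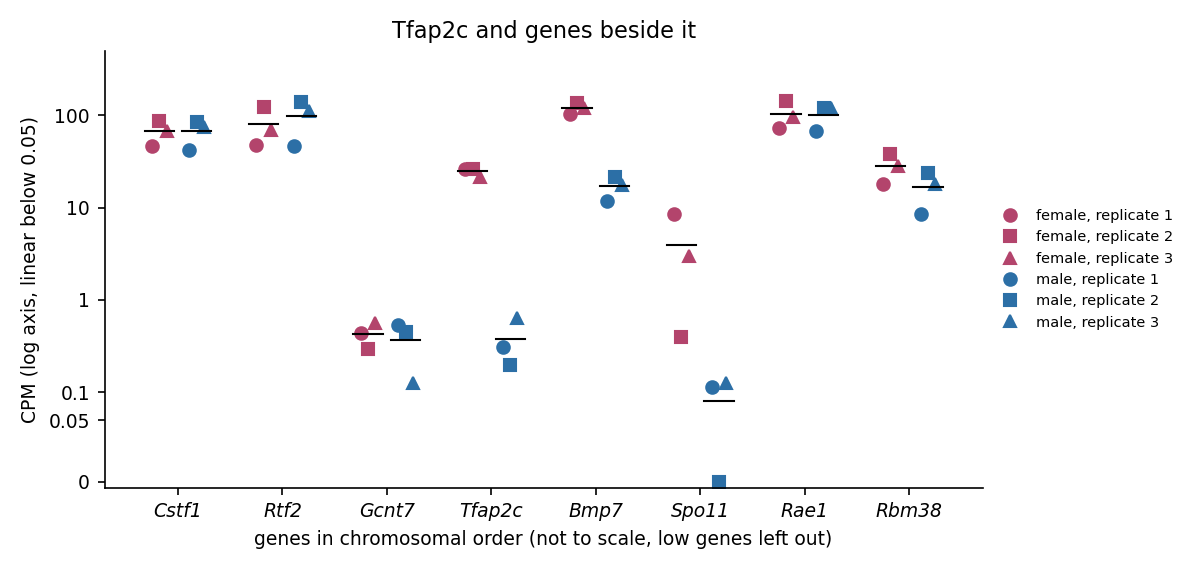
CPM of Tfap2c and genes beside it, in chromosomal order and not to scale, on a log axis that is linear below 0.05, with 1 point per library and a line at the mean of 3 libraries per sex. Bmp7 lies at 104.2 to 136.1 CPM in the female and 11.9 to 21.6 CPM in the male libraries, while Cstf1, Rtf2, Gcnt7, Rae1 and Rbm38 overlap between the sexes.

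The partners and regulators of AP-2 showed no called change between the sexes. Of 11 listed genes 10 were tested and 0 passed by edgeR, 1 at an unadjusted p under 0.05, and 0 by DESeq2 or limma-voom, against 1.23% called over all genes. At that share 0 calls among 10 genes say little about the list. The median log2 fold change of the tested partners and regulators was −0.01, as was that of all genes, with 5 positive and 5 negative. Cited2, an AP-2 coactivator gene, was at 21.9, 21.5 and 20.5 CPM in the female and 36.1, 30.3 and 46.9 CPM in the male replicates 1 to 3. The sexes did not overlap, but the log2 fold change of 0.83 (SE 0.31) missed the threshold (edgeR adjusted p = 0.451). Cited1 was at 0.573 ± 0.505 and 1.02 ± 0.292 CPM in the female and male libraries (SD, n = 3). Cited4 was not tested, with 79 female and 17 male counts. Kctd1, an inhibitor gene, was at 20.2 ± 0.780 CPM in the female and 16.8 ± 1.98 CPM in the male libraries (SD, n = 3), with a log2 fold change of −0.27 (SE 0.30). Kctd15, the other inhibitor gene, was at 60.2 ± 21.7 and 77.9 ± 29.0 CPM. Ep300 and Crebbp, genes of acetyltransferases that CITED proteins recruit, had log2 fold changes of −0.14 and −0.36.

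Genes reported elsewhere as AP-2 targets were not called by edgeR. Of 22 listed genes 21 were tested and 0 passed, 2 at an unadjusted p under 0.05, against 1.23% called over all genes. At that share 0 calls among 21 genes say little about the list. DESeq2 called 1, Igfbp5, limma-voom 0, and the offset for GC content and length 2, Igfbp5 and Cdkn1a. The median log2 fold change was 0.30, against −0.01 over all genes, with 13 positive and 8 negative. Igfbp5, the gene of an IGF binding protein and the member with the smallest p, was at 662, 609 and 753 CPM in the female and 2256, 1922 and 2078 CPM in the male replicates 1 to 3. All male libraries were above all female libraries, with a log2 fold change of 1.63 (SE 0.34, adjusted p = 0.0881 by edgeR), and 4 of 18 alternatives called it. Krt8 and Krt18, keratin genes of simple epithelia, differed by −0.18 (SE 0.73) and −0.24 (SE 0.59) in log2 fold change. Krt8 ranged from 33.2 to 174.6 CPM in the female and from 30.7 to 117.5 CPM in the male libraries, so the libraries of one sex spread more than the sexes differed. In both sexes Krt8 was lowest in replicate 1 and highest in replicate 2. Esr1, the oestrogen receptor alpha gene, was at 179.4 ± 72.4 CPM in the female and 127.3 ± 65.9 CPM in the male libraries (SD, n = 3), with a log2 fold change of −0.50 (SE 0.52). Cdkn1a, a cell cycle inhibitor gene, had the lowest value of the list, −1.64 (SE 0.73), with overlap between the sexes. It was picked after its value was seen.

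Factors known to act beside AP-2 in epithelium and trophoblast included 2 genes that rose in male mesenchyme. Of 17 listed genes 10 were tested, 2 rose, none fell and 8 did not pass, against 0.841% of all genes called higher. The list was chosen with earlier results of these data known, so its count beside that share is a description and no test. By limma-voom 2 passed, both higher in male. DESeq2 and the offset for GC content and length called 5 each, 4 higher and 1 lower, with Klf5 and Grhl1 among those higher. Over all genes DESeq2 called 771 and the offset 905. Gata3, a zinc finger factor of trophoblast and several epithelia, was at 1.69, 1.57 and 2.24 CPM in the female and 13.9, 9.34 and 15.5 CPM in the male replicates 1 to 3, 2.81 in log2 fold change (SE 0.39, adjusted p = 0.0281 by edgeR). Esrrb, a nuclear receptor gene known from trophoblast stem cells, was at 0.367, 0.344 and 0.360 CPM in the female and 1.87, 4.50 and 2.78 CPM in the male replicates 1 to 3, with 3.07 (SE 0.49, edgeR adjusted p = 0.0402). Neither gene overlapped between the sexes. Both calls were lost without any female replicate and without male replicate 2 or 3, where the adjusted p lay between 0.0728 and 0.22 for Gata3 and between 0.125 and 0.311 for Esrrb.

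The other tested members of that group did not pass, and those named next were picked after their values were seen. Klf5, Grhl1, Klf4 and Gata2 had log2 fold changes of 1.94, 1.83, 1.28 and 0.99, and Grhl3 had −1.44 (SE 0.62). Of the 10 tested members 8 had positive and 2 negative log2 fold changes. The median over the tested members was 1.14, against −0.01 over all genes. Of the 7 untested members none held more than 20 counts in a library. Cdx2, a defining trophoblast gene, held 0 counts in all libraries, Elf5 held 3 female and 2 male counts, and Grhl2, an epithelial factor gene, held 8 and 7.

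**Figure D3:**
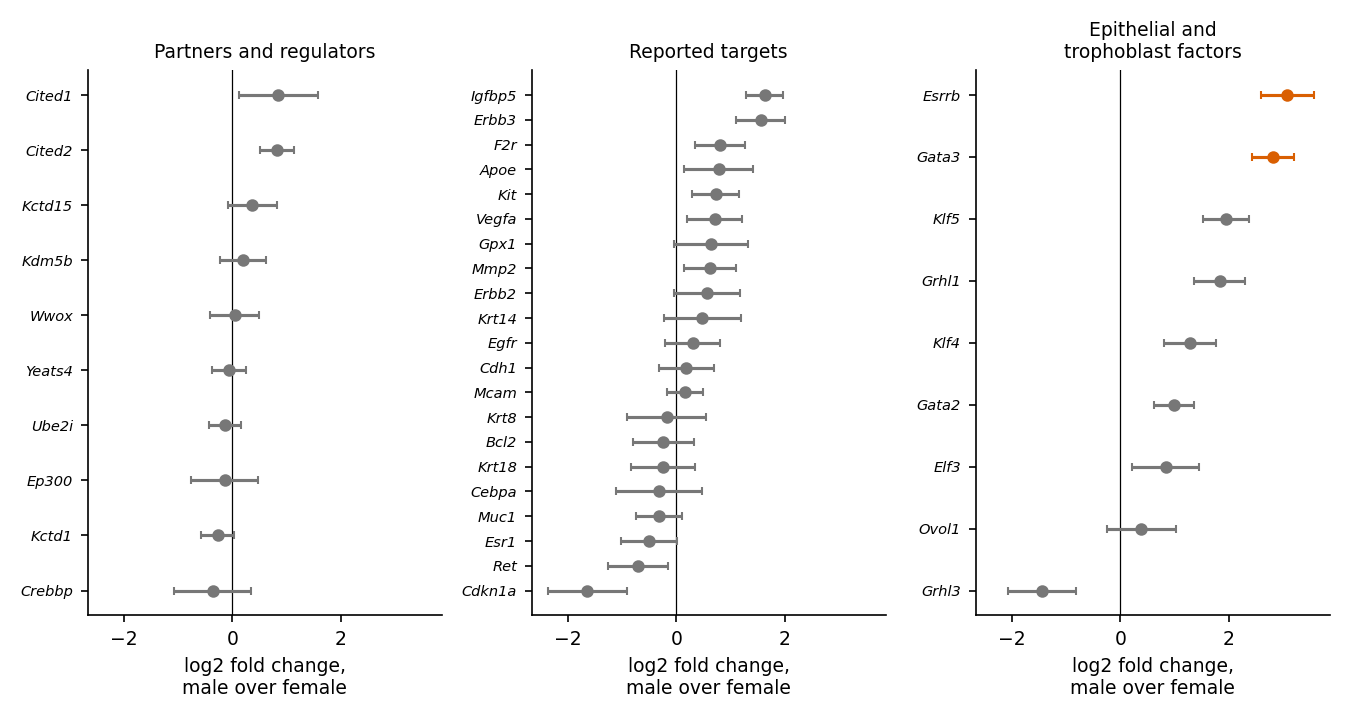
Log2 fold change, male over female, with its standard error, for tested members of 3 lists (10 partners and regulators, 21 reported targets, 9 epithelial and trophoblast factors). Orange points, Gata3 and Esrrb, passed the adjusted p threshold of 0.05 over all genes tested, and grey points did not.

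Promoter windows were searched for the palindrome GCCNNNGGC, a common form of the AP-2 site that reads the same on both strands, and for its narrower form GCCTNAGGC, whose matches are all matches of the first. The RefSeq windows (build GRCm38.p6) run from 250 bases before to 50 after a start site, and 16.6% of all 32851 windows held GCCNNNGGC. Among genes tested here with a window, 29.2% did, and among genes called lower and higher in male 27.5% and 28.3% did. In the lists it was found in 10 of 18 reported targets, 3 of 8 partners and 5 of 11 epithelial and trophoblast factors with a window. GCCTNAGGC was in 1.37% of the tested genes, in 3 of 40 genes called lower and in 1 of 99 called higher. The 3 were Edar, Slc16a10 and Nup210, named after the search. Windows were found for 4 of the 5 members, without a match, and not for Tfap2c.

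The sequences below show what such matches look like, with the 9 bases of each match in capitals, all 5′ to 3′ on the gene's strand. Gata3 is shown since it rose and its window held 3 matches, over the first 60 bases of the window, chr2:9878791-9878850, minus strand. Igfbp5 (chr1:72874911-72874939, minus strand), Krt18 (chr15:102028123-102028151, plus strand) and Esr1 (chr10:4611809-4611837, plus strand) are reported targets described above. Spock1 (chr13:57908377-57908405, minus strand) and Cpxm2 (chr7:132154820-132154848, minus strand) are 2 of the genes whose profile was nearest to that of Tfap2c. A match is a description of letters and not a measured binding site.
Gata3: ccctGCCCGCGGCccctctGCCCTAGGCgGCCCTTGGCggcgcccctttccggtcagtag
Igfbp5: ctggctggcaGCCAGGGGCcgtctattta
Krt18: cgatcctggcGCCCCCGGCtccggtggct
Esr1: ttttttttcaGCCAGAGGCttgtccttct
Spock1: gccagggggcGCCAGAGGCctcggctagg
Cpxm2: tgctggagagGCCCTGGGCgggtaggagg

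The single matches in Igfbp5, Krt18, Esr1, Spock1 and Cpxm2 began at positions −64, −83, −170, −63 and −97 from the start site. Spock1 and Esr1 share the same 9 matched bases. The part of such a match in the values of either gene was not tested.

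Among the 8 genes with the profile most like Tfap2c were Clic6, Lgi1, Spock1, Slit1, Cpxm2, Gpr83 and ENSMUSG00000074303, the last without a symbol. Likeness was the Euclidean distance between log2 CPM profiles over the 6 libraries, each centred on its gene mean, and it was 1.83 for Clic6 and 2.65 for the eighth. Since all were chosen by that pattern, their difference between the sexes is given with no test. Clic6, a gene of the chloride intracellular channel family, was at 63.9, 55.2 and 68.1 CPM in the female and 0.574, 0.840 and 0.421 CPM in the male replicates 1 to 3. Slit1, an axon guidance gene, held 778 female and 30 male counts, and Spock1, a matrix proteoglycan gene, 209 and 5. The gene without a symbol held 1404 female and 90 male counts. Pearson's r with Tfap2c over the 6 libraries ran from 0.963 to 0.986 in these 8 genes, and 201 of 15226 other genes were above 0.95. The male against female step is shared by all of them, as the plot of centred profiles shows, and within a sex the order of the libraries differed between the genes.

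**Figure D4:**
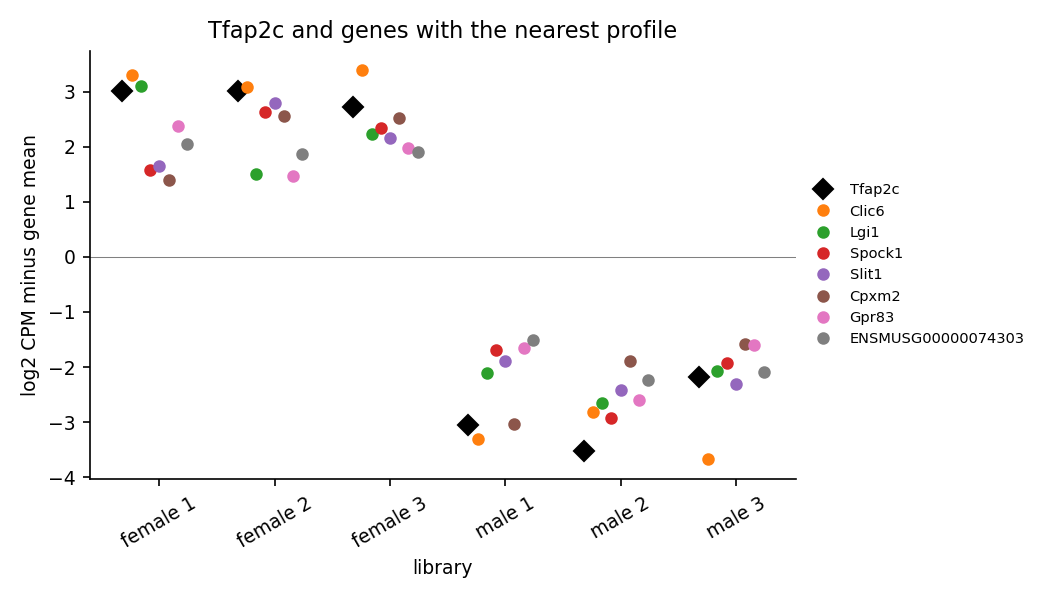
Log2 CPM minus the gene's own mean, by library, for Tfap2c (black diamonds) and 7 of the 8 genes with the smallest distance to its profile (coloured circles). The genes shown all lie above their mean in the 3 female libraries and below it in the 3 male libraries.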

How the data were processed

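Each deposited file gives 1 library's raw counts by Ensembl gene identifier. Per the submitters' processing notes, the tools were TopHat, HTSeq and DESeq and the build mm9, with neither roles nor versions. The annotation release is not given in the sources used here, nor is the strand setting. Per the labels' protocols, libraries were made with a TruSeq v2 kit from at least 100 ng of RNA and read as paired 76-base reads. The 5 summary lines name no gene and were left out. Counts outside genes made up 17.5% and 18.2% of uniquely placed counts in female and male replicate 1, and 3.53% to 8.65% in the other libraries. Ambiguous counts made up 6.51% to 10.0%. Symbols (32919 of 37991 identifiers) and exon lengths came from GENCODE annotation of GRCm38, used for names, lengths and gene order only. Nothing in the labels says how the pools were raised, so p-values measure the spread between these pools.

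Genes were kept with filterByExpr, TMM-scaled and tested two-sided by the robust quasi-likelihood method of edgeR 4.0.16 (R 4.3.3) on sex alone. The p-values were adjusted by Benjamini-Hochberg over 15227 genes. Fold changes are log2 male over female, and standard errors were derived from the F statistic. Alternatives were other scalings and filters, DESeq2 1.42.0, limma-voom (limma 3.58.1), a replicate block, a GC content and length offset (splines with 5 degrees of freedom), each library left out and, chosen after the data were seen, both libraries of a replicate number left out. Members and lists were chosen with earlier results of these data known. Named genes were the 5 members; in each AP-2 list up to 4 members past the threshold, or the one with the smallest p, plus 11 fixed genes; the most abundant gene of each marker list with Epcam, Amhr2, Ddx4 and Sox10; 4 tested neighbours of Tfap2c on each side; and the 8 nearest profiles (log2 CPM, prior count 2). Of the genes in the lists and the nearest profiles, 2 are counted but not reported here.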

Additional observations from a re-analysis of the deposited data

How the results depend on the processing

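With libraries left out, the mean of Tfap2c was 22.9 to 26.1 CPM in female and 0.247 to 0.497 CPM in male libraries. Counts of called genes moved by more than 1.5 times, and the cause was not tested. Over all genes, 187 were called in the fit described. DESeq2 called 771, the GC content and length offset 905, the replicate block 4164 and the block with the offset 4418, single left-out libraries gave 0 to 173, and leaving out replicate 1, 2 or 3 of both sexes gave 354, 0 and 0. For reported targets DESeq2 called 1, the offset 2, the block 12 and both together 13, in place of 0, and left-out libraries 0. For partners and regulators the block called 1 and the block with the offset 2, in place of 0. For epithelial and trophoblast factors DESeq2 called 5, the offset 5, the block 8 and both 7, in place of 2, and left-out libraries 0 to 2. For the neighbours of Tfap2c the offset called 2, the block 3 and both 3, in place of 1, and left-out libraries 0 to 1. The labels give both sexes replicates 1 to 3 without saying that a number was shared. The deviations of same-numbered libraries correlated over genes at 0.927, 0.852 and −0.07 for replicates 1 to 3, and replicate 3 correlated better with another number, so the pairing was not taken up. For single named genes other than the members and the nearest profiles, 429 values under alternatives kept their side of the threshold, 44 that passed no longer did, 28 moved past it, and none changed direction on a call. At this depth a gene at 0 counts in a sex may still hold up to 3 counts.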
